A study of Mus musculus with 4 samples.

Results

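The 10 miRNAs described here are known for connective tissue, vessel and muscle cells rather than for beta cells. They were taken by name from the 1915 mature mouse miRNAs in the deposited table, by the tissues they are known for: mmu-miR-199a-3p, mmu-miR-199a-5p, mmu-miR-199b-3p and mmu-miR-214-3p of fibroblasts, mmu-miR-143-3p and mmu-miR-145a-5p of smooth muscle, mmu-miR-126a-3p and mmu-miR-126a-5p of endothelium, and mmu-miR-1a-3p and mmu-miR-133a-3p of striated muscle. miR-199a-3p and miR-199b-3p have the same mature sequence and hold the same reads, so that the list covers 9 distinct sequences. Small RNA was sequenced from MIN6 cells, an insulinoma line of mouse pancreatic beta cells, and from the exosomes that ultracentrifugation recovered from their conditioned medium, with 2 libraries of each. MIN6 is a single tumour line and neither group received a treatment. Both groups came from cultures in DMEM with exosome-depleted 15% FBS, penicillin-streptomycin and β-mercaptoethanol, and no library of unconditioned medium was analysed here. The labels name the miRNeasy Serum/Plasma kit for the RNA of both groups and the SMARTer smRNA-Seq kit for the libraries, whereas the quality check was run on a Bioanalyzer for exosomes and on a TapeStation for cells, so that this difference in handling cannot be told apart from the group. For qRT-PCR, the study's methods give a different extraction kit for the cells, mirVana. Nothing in the labels says whether the libraries of a group came from separate cultures, and p-values measure only the spread between these libraries.

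A mature miRNA guides an Argonaute protein to messenger RNAs that pair with its seed, bases 2 to 8. miR-214, and miR-199a from its gene Mir199a-2, are made from the long noncoding RNA Dnm3os, which mesenchymal cells transcribe. miR-143 and miR-145a are cotranscribed in smooth muscle, where they favour the contractile state. miR-126a lies within Egfl7, a gene of endothelial cells, and supports vascular integrity, while miR-1a and miR-133a act in the differentiation of skeletal and heart muscle. In the pancreas, fibroblasts, stellate cells and capillary endothelium surround the islets, and a line of beta cells alone holds none of these cells.

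The sequences of the fibroblast miRNAs and of the 3p arm of miR-126a are shown because they fix which members the reads can tell apart. They are RefSeq mature sequences on GRCm38.p6, written 5′ to 3′ with the seed in capitals, and each equals the sequence in the deposited files.
miR-199a-3p and miR-199b-3p: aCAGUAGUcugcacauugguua
miR-199a-5p: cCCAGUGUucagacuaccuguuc
miR-214-3p: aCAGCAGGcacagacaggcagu
miR-126a-3p: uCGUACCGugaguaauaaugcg
The first of these is encoded 3 times, at chr1:162217883-162217904 on the plus strand (Mir199a-2), at chr9:21496498-21496519 on the minus strand (Mir199a-1) and at chr2:32318524-32318545 on the plus strand (Mir199b). No count of it can be assigned to one of these genes. miR-199a-5p comes from the first 2 of them, at chr1:162217844-162217866 and chr9:21496537-21496559. The mature miR-214-3p lies at chr1:162223438-162223459 on the plus strand and miR-126a-3p at chr2:26591402-26591423 on the plus strand. In the GENCODE vM21 annotation of GRCm38, Mir199a-2 and Mir214 lie in exons of Dnm3os and opposite to an intron of Dnm3, Mir199a-1 and Mir199b lie opposite to introns of Dnm2 and Dnm1, and Mir126a lies in an exonic part of Egfl7 on the same strand. miR-214-3p shared its seed with miR-761, which had no count in any library. miR-199a-5p shared its seed with miR-199b-5p, which had 1 count, in exosome library 1. Searched in 139565 transcripts of genes other than miRNA genes, the mature sequences of the members with a count occurred only in their hosts Dnm3os and Egfl7. The mature lengths were 21 to 23 bases, so that counts of different members were compared without a correction for length.

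The exosome libraries were far shallower, with 47447 and 31409 mature counts against 2930217 and 2564068 per cell library. The floor was set at 3 counts, which was 1.55 and 1.91 normalized CPM in cells and 35.4 and 69.9 in exosomes, where normalized CPM is the count per 1e6 reads after TMM scaling. Levels under the floor could not be detected, and all intervals and floors cover counting error only. The labels of the cells were checked against 12 miRNAs of beta cells and endocrine epithelium, which took 6.35% and 6.45% of the cell counts and 2.76% and 1.02% of the exosome counts. In the exosomes, miR-375-3p, a miRNA highly enriched in islets, held 507 and 222 counts, and miR-96-5p was at 0 in both libraries.

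Of the 10 members, 9 had a count and 8 passed the expression filter, and edgeR's quasi-likelihood test called 7 of them higher in exosomes at an adjusted p under 0.05 and 0 lower. These 7 hold 6 distinct sequences. Over all 438 miRNAs tested, 23.7% were called higher and 29.5% lower. In a vesicle preparation, more vesicles of a kind and more of a miRNA in each vesicle cannot be told apart. No member was lower at an unadjusted p under 0.05, and DESeq2 and edgeR's exactTest also called 0 lower. These counts of 0 are no support, because the exosome floors, 35.4 and 69.9 normalized CPM, left a lower level undetectable for most members. Only the mean level of miR-126a-5p in cells, 57.4, lay between the floors, and those of the other members lay under both. For 4 of the tested members the filter was passed through the exosome libraries alone, so that their call was partly set by the filter and their count is no support. The other 4, both arms of miR-126a, miR-143-3p and miR-1a-3p, also passed through the cells, and 3 of these 4 were called higher. Both arms of miR-126a are among the 3 and come from the same hairpin, so that these are not 3 separate observations. Of all 438 tested, 106 passed through the exosomes alone, so that 23.7% is not the rate among miRNAs that also passed through the cells. The median log2 fold change of the 8 was 6.26, and it was 4.71 with the members at or under the floor in a group set to the near end of their counting interval, or to 0 where that interval held no change. Over all tested miRNAs the median was -0.75 (TMM), 0.61 (library size alone) or -0.07 (upper quartile scaling). Each fitted fold change given here depends on the scaling and was not re-centred on this median.

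**Figure D1:**
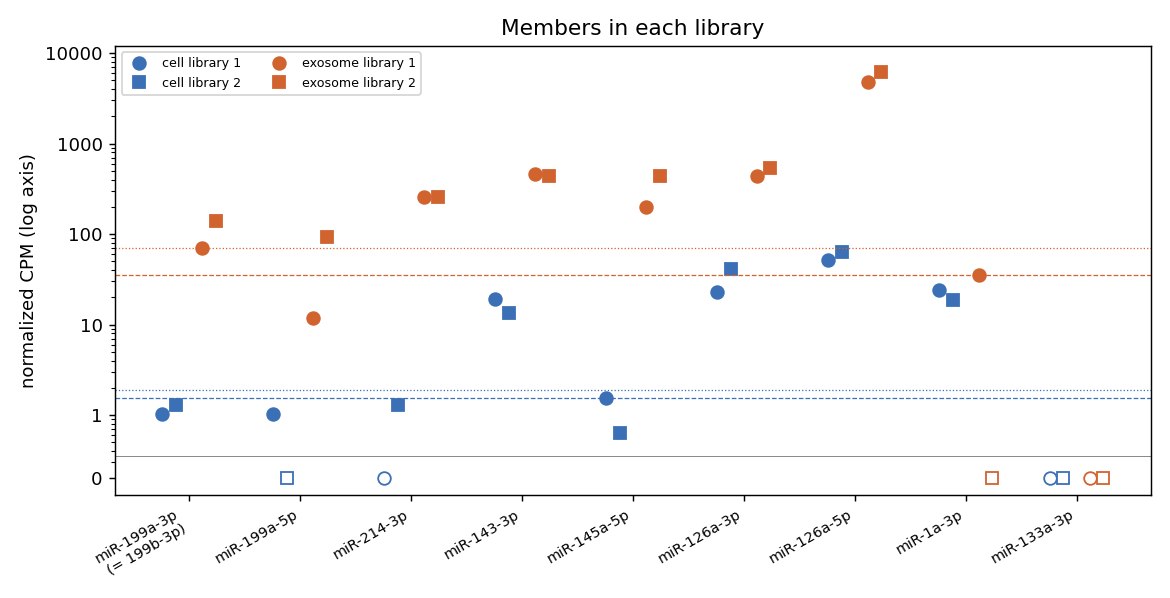
Normalized CPM (log axis) of the 9 distinct member sequences in the 2 cell libraries (blue) and the 2 exosome libraries (orange), with open symbols for a count of 0 and lines at the floor of 3 counts in each library (dashed for library 1, dotted for library 2). The exosome points of miR-126a-5p, at 4751 and 6194, lie above those of every other member, and miR-1a-3p is the member with a count whose groups overlap.

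The endothelial miRNAs held most of the members' reads. miR-126a-5p, which has its own targets in endothelial cells, was read 100 and 99 times in cells against 403 and 266 times in exosomes. This was 51.8 and 63.1 normalized CPM in cells against 4751 and 6194 in exosomes, with no overlap of the groups. On the log2 scale exosomes were higher by 6.57 (SE 0.49, edgeR adjusted p = 0.0065). At the cell level, 4.87 and 2.47 counts would have been recorded in the exosome libraries. The call held without each library in turn, with log2 fold changes from 5.81 (without cell library 1) to 7.13 (without exosome library 1). Without scaling by TMM, the RPM of the exosome libraries were 8494 and 8469, nearly the same value, and miR-126a-5p ranked 22 among the 1915 miRNAs by mean RPM in exosomes and 226 in cells.

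miR-126a-3p, the arm that represses Spred1 and so sustains VEGF signalling in endothelium, was read 44 and 64 times in cells and 37 and 23 times in the much shallower exosome libraries. Its normalized CPM were 22.8 and 40.8 in cells and 436 and 536 in exosomes, again without overlap. The difference on the log2 scale was 3.92 (SE 0.49, edgeR adjusted p = 0.00818). The call was lost when either cell library was left out, at an adjusted p of 0.169 without cell library 1 and 0.0901 without cell library 2, with log2 fold changes of 2.93 and 3.89.

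The share of each arm of mir-126a stood apart between the groups by more than the counting error. miR-126a-5p took 100 of 144 reads of both arms in cell library 1, which is 69.4% (95% Wilson interval 61.5 to 76.4), and 99 of 163 in cell library 2, 60.7% (53.1 to 67.9). In the exosomes it took 403 of 440 reads, 91.6% (88.6 to 93.8), and 266 of 289, 92.0% (88.3 to 94.6). The intervals of cells and exosomes did not overlap, and the group means were 65.1% ± 6.16 and 91.8% ± 0.319 (SD, n = 2), a difference of 26.7 percentage points. A share within 1 hairpin does not depend on the scaling of the libraries. A two-sided exact permutation test of 2 libraries against 2 gave p = 0.333, the smallest it can give.

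**Figure D2:**
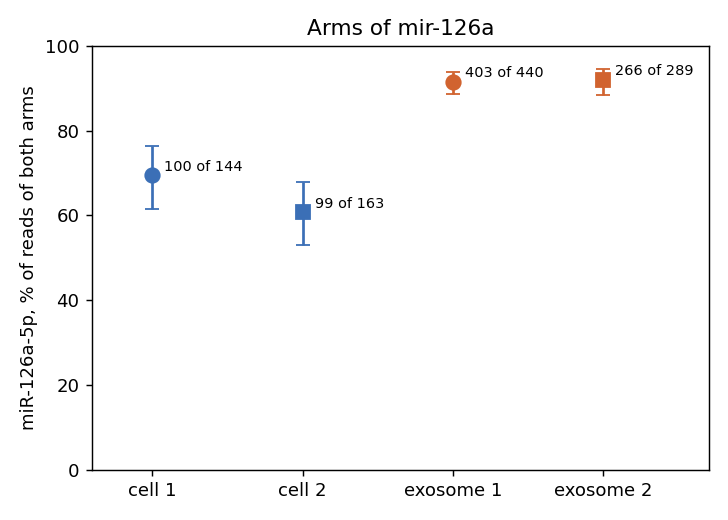
Share of miR-126a-5p among the reads of both arms of mir-126a in each library, in percent, with the counts beside each point and bars for the 95% Wilson interval. The 2 cell libraries lie at 69.4% and 60.7% and the 2 exosome libraries at 91.6% and 92.0%.

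For miR-199a, too few reads were recorded to compare the arms. The 3p arm took 2 of 4 and 2 of 2 reads in cells and 6 of 7 and 6 of 10 in exosomes, and the Wilson intervals of all 4 libraries overlapped (48.7 to 97.4% and 31.3 to 83.2% in the exosomes). miR-126b, which is annotated on the strand opposite to Mir126a from 26591363 to 26591420 on chromosome 2, gave few reads: miR-126b-3p had 4 counts in each cell library and 0 in both exosome libraries, where an equal level would not have been detectable.

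Of the smooth muscle pair, miR-143-3p was present in all 4 libraries. It was read 37 and 21 times in cells and 39 and 19 times in exosomes, so that libraries of very different depth held nearly the same numbers of reads. Its normalized CPM were 19.2 and 13.4 in cells and 460 and 442 in exosomes, and the groups did not overlap. Its log2 fold change of 4.78 (SE 0.42, edgeR adjusted p = 0.0065) became 4.40 (adjusted p = 0.0685) without cell library 1 and 4.01 (adjusted p = 0.0863) without cell library 2, so that the call needed both.

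miR-145a-5p, which targets pluripotency and smooth muscle regulators, was near the floor in cells, with 3 counts and 1 count, and had 17 and 19 counts in the exosomes. In normalized CPM it stood at 1.55 and 0.637 in cells and at 200 and 442 in exosomes, again without overlap. The pooled counts were in a ratio of 247 (95% exact counting interval 88.4 to 954), and the edgeR fit gave an adjusted p of 0.0065. The fitted log2 fold change of 7.93 became 7.04 without cell library 2 and 8.84 without exosome library 1. miR-145a-5p passed the filter through the exosome libraries alone, so that its call was partly set by the filter and is no support. Mir143 and Mir145a lie 1 after the other on the minus strand of chromosome 18 of GRCm38, at 61649196 to 61649258 and 61647825 to 61647894, in no other annotated gene. The share of miR-145a-5p in the reads of the pair was higher in both exosome libraries than in the cells. This difference rested on few reads in the cells and was not tested. In cells, miR-145a-5p took 3 of 40 reads of the pair (95% Wilson interval 2.58 to 19.9%) and 1 of 22 reads (0.807 to 21.8%). In exosomes it took 17 of 56 (19.9 to 43.3%) and 19 of 38 (34.8 to 65.2%). The interval of exosome library 1 overlapped that of cell library 2.

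Among the mesenchymal miRNAs, miR-214-3p, which is transcribed with miR-199a-2 in Dnm3os and known from fibroblast activation, had 0 and 2 reads per cell library and 22 and 11 per exosome library. The exosome libraries agreed closely, at 259 and 256 normalized CPM, and lay above the cells at 0 and 1.27. The pooled counts were in a ratio of 452 (counting interval 116 to 3889), with an adjusted p of 0.00693 from edgeR. This call was partly set by the filter, which miR-214-3p passed through the exosome libraries alone. Without cell library 1 the fitted log2 fold change was 6.78 and without cell library 2 it was 9.98, since the level in cells rested on 2 reads of 1 library. Without exosome library 1 too few counts of miR-214-3p remained for the filter.

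miR-199a-3p, with the identical miR-199b-3p, had 2 counts in each cell library and 6 in each exosome library. In normalized CPM this was 1.04 and 1.27 in cells and 70.7 and 140 in exosomes, where the groups did not overlap. The pooled counts were in a ratio of 82.2 (counting interval 24.9 to 350), with an adjusted p of 0.00659 from edgeR. The filter was passed through the exosome libraries alone, which partly set this call, and with any library left out too few counts remained for it. miR-199a-5p, which targets hypoxia and caveolin transcripts, had 2 and 0 reads per cell library and 1 and 4 per exosome library. With 7 counts in all it did not pass the filter, and only exosome library 2 was over the floor. The ratio of its pooled counts was 68.5 (counting interval 11.2 to 719), and when no filter was applied it was called higher at an adjusted p of 0.0462 (log2 fold change 4.63, standard error 1.43).

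Neither striated muscle miRNA was called in either direction. miR-1a-3p had 47 and 29 reads per cell library, at 24.3 and 18.5 normalized CPM, and 3 and 0 in the exosomes, at 35.4 and 0. The exosome libraries lay on both sides of the cells. The log2 fold change was 0.08 (SE 0.92, edgeR adjusted p = 0.936), and the ratio of pooled counts was 1.08 with a counting interval of 0.218 to 3.28, which leaves room for a several-fold change in either direction. At the cell level only 1.82 and 0.919 reads would have been recorded in the exosome libraries. Its fitted log2 fold change was below 0 with RLE scaling (-0.01), DESeq2 (-0.08), no filter (-1.22), removal of the 5 most abundant per group (-0.09) and without exosome library 1 (-7.67, where the remaining exosome library had no read), and it passed the threshold in none of the 11 alternatives in which it was tested. miR-133a-3p, which is transcribed with miR-1a in muscle, was at 0 in all 4 libraries. A count of 0 allows a share of up to 0.000102% and 0.000117% of the cell libraries and 0.00632% and 0.00955% of the exosome libraries.

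In cells, the order of the mean levels in normalized CPM was miR-126a-5p at 57.4, miR-126a-3p at 31.8 ± 12.7, miR-1a-3p at 21.4 ± 4.14 and miR-143-3p at 16.3 ± 4.08 (SD, n = 2), and the remaining members were at or under the floor. The libraries of miR-126a-5p did not overlap those of miR-126a-3p, whereas the other neighbours shared values. In exosomes, miR-126a-5p at 5473 ± 1020 was followed by miR-126a-3p at 486 ± 70.3, miR-143-3p at 451 ± 12.3, miR-145a-5p at 321 ± 171, miR-214-3p at 258 ± 2.28, miR-199a-3p at 105 ± 48.8, miR-199a-5p at 52.5 ± 57.5 and miR-1a-3p at 17.7 ± 25.0 (SD, n = 2). Here miR-126a-5p did not overlap miR-126a-3p, nor did the libraries of miR-214-3p overlap those of miR-199a-3p, whereas the other neighbours shared values, and the order of the last members, near the floor, was not resolved.

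**Figure D3:**
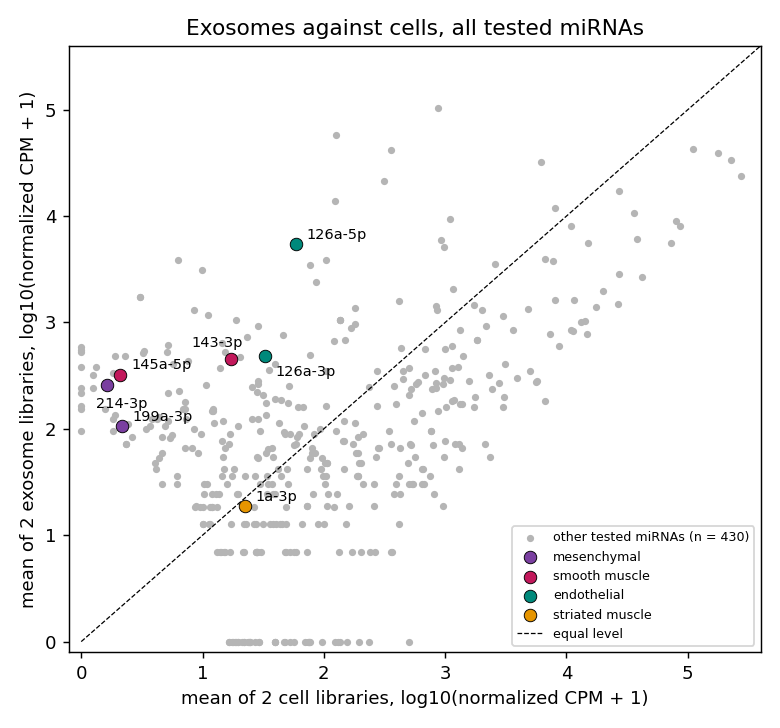
Mean of the 2 exosome libraries against the mean of the 2 cell libraries for the 438 tested miRNAs, each as log10(normalized CPM + 1), with the tested members coloured by the tissue they are known for (miR-199b-3p lies under miR-199a-3p) and a dashed line at equal levels. The tested members other than miR-1a-3p lie above the line, miR-126a-5p the highest of them at 5473 normalized CPM in exosomes.

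In normalized CPM, the lower exosome library exceeded the higher cell library for 7 of the 8 tested members, against 33.3% of all tested miRNAs. Of these 7, 4 passed the filter through the exosomes alone, miR-199a-3p and the identical miR-199b-3p among them, so that the count is no support, and the other 3 were both arms of miR-126a and miR-143-3p. The agreement of the 2 exosome libraries varied between lists. Among the 6 member sequences with more than 3 counts in both, the median fold between the exosome libraries was 1.27, against 1.98 over 175 tested miRNAs and 4.02 over 6 of the beta-cell list, a difference given as a description with no test. The reads of the member hairpins also fell wholly on the annotated arms. Of 529 and 348 distinct reads on these hairpins in the exosomes, 0 lay on neither arm, which allows shares of up to 0.567% and 0.862%. The hairpin mir-126a held 440 and 289 of these reads, so that the limits mostly describe that hairpin. In the cells, 0 of 235 and 218 reads lay on neither arm, with limits of 1.28% and 1.38%. Over all hairpins, 32.8% and 42.0% of the exosome counts and 10.9% and 9.58% of the cell counts lay on neither arm. Of the hairpins with at least 10 counts, 51.4% of 245 in exosome library 1 and 63.7% of 179 in exosome library 2 had such a read, against 0 of 7 member hairpins in each. These 7 include mir-199a-1, mir-199a-2 and mir-199b, which share reads, so that they are not 7 separate observations. The hairpins compared were not matched for depth.

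Of the 23 other arms and paralogues of these miRNAs, only 4 had a count in any library and none passed the filter. miR-1b-3p had 8 and 3 counts and miR-1b-5p 5 and 6 in the cells, both with 0 in the exosomes, and the remaining counts were those of miR-126b-3p and miR-199b-5p given above. The passenger arms of miR-143, miR-145a and miR-214, the muscle miRNAs miR-133b, miR-133c and miR-206, and the myosin-encoded miR-208a, miR-208b and miR-499, which mark heart and slow skeletal muscle, were at 0 in all 4 libraries. The hairpin of the paralogue miR-145b had 0 and 1 reads in cells and 5 and 3 in exosomes, all on neither annotated arm. No read of an annotated arm of the miR-133, miR-206, miR-208 or miR-499 families was thus recorded in either group.

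Summed over the 9 distinct sequences, the members took 235 of the counts of cell library 1, 0.00802% (95% Wilson interval 0.00706 to 0.00911), and 218 of those of cell library 2, 0.00850% (0.00745 to 0.00971). In the exosomes they took 528 counts, 1.11% (1.02 to 1.21), and 348 counts, 1.11% (0.998 to 1.23). The group means were 0.00826% ± 0.000341 and 1.11% ± 0.00344 (SD, n = 2), a ratio of 134, and the members were chosen with results of these data known, so that no p is given. miR-126a-5p alone made up 42.6% and 45.4% of the members' counts in cells and 76.3% and 76.4% in exosomes, and without it the ratio was 56.7. By tissue, the ratio of the mean shares was 438 for the mesenchymal, 108 for the smooth muscle, 164 for the endothelial and 2.31 for the striated muscle members. The first rested on 4 reads in each cell library and the last had 1 exosome library at 0. All these shares and ratios use library sums without TMM scaling, so that they are not comparable with the fold changes above. Pooled counts of miR-126a-5p gave a ratio of 234 in RPM and 92.1 after TMM scaling, and those of miR-1a-3p 2.75 and 1.08.

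The shares of other tissue lists also differed between the groups, in different directions, and their part in the result was not tested. Of 8 blood-cell miRNAs, 6 were tested and 6 called higher, all of which passed the filter through the exosome libraries alone. The list took 0.000273% and 0.000390% of the cell counts and 0.868% and 0.248% of the exosome counts. In the cells 5 and 4 of the 8 were at 0, among them the erythroid miR-451a in both libraries, and in exosome library 2 only miR-144-3p was. The share of the blood-cell list was thus 3.50 times as high in exosome library 1 as in library 2. The members' share differed by a factor of 1.00 and that of the liver list by 0.998. Of 11 tested miRNAs of the beta-cell list, 9 were called lower and 0 higher under TMM, against 29.5% lower over all 438 tested. Such calls depended on the scaling, with 129 lower over all tested under TMM and 30 under library size alone. The share of the beta-cell list also differed between the exosome libraries, by a factor of 2.70. Of the liver list, 1 of 3 tested was called higher, against 23.7% over all 438 tested. This was the hepatocyte miR-122-5p, read 13 and 21 times in cells and 79 and 62 times in exosomes. Both exosome libraries reached the filter level of 7.66 RPM, but of the cells, at 4.44 and 8.19 RPM, only library 2 did. The call of miR-122-5p was thus partly set by the filter. The other 2 tested, miR-192-5p with 315 and 311 reads in cells and 13 and 3 in exosomes and miR-194-5p with 244 and 254 against 9 and 2, were not called, and the median log2 fold change of the list was -0.61. The liver list took 0.219% and 0.220% of the exosome counts against 0.0195% and 0.0229% of the cell counts.

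**Figure D4:**
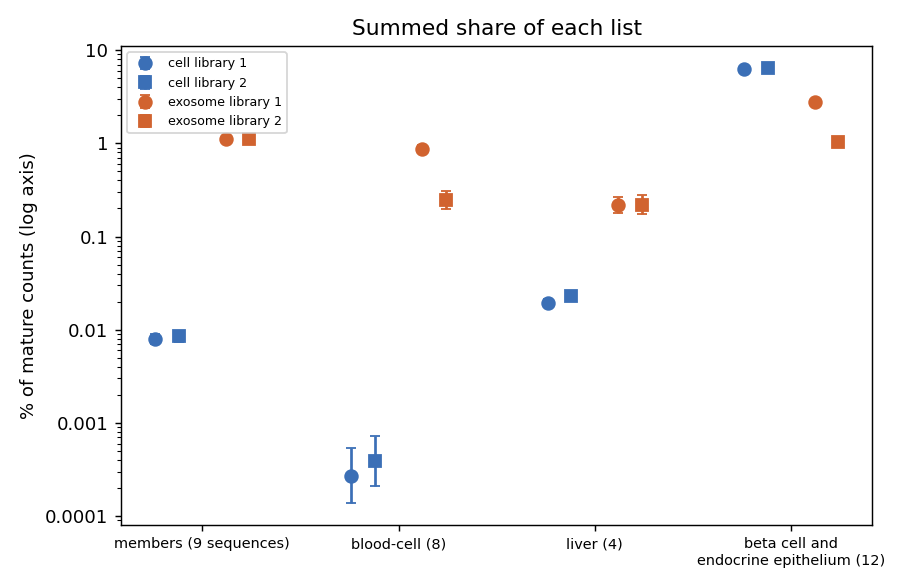
Summed share of the mature counts (percent, log axis) of the members, the blood-cell, liver and beta-cell lists in each library, with bars for the 95% Wilson interval where they exceed the symbol. The members stand at 1.11% in both exosome libraries and the liver list at 0.219% and 0.220%, while the blood-cell and beta-cell lists are higher in exosome library 1 than in library 2.

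The 5 tested miRNAs with profiles nearest to miR-126a-5p, by Euclidean distance of log2(normalized CPM + 1) over the 4 libraries and among 430 miRNAs, were miR-5128, miR-466f-3p, miR-671-5p, miR-1895 and miR-3473a, at distances of 1.37, 1.46, 1.91, 2.37 and 3.84. Each was also called higher in exosomes, which follows largely from choosing them by their levels in these same libraries. In counts, miR-671-5p had 193 and 109 reads in cells and 192 and 110 in exosomes, and miR-5128 had 163 and 105 in cells and 186 and 203 in exosomes. Their other readouts stood apart from one another. On the hairpin of miR-3473a, 39.3% and 42.9% of the exosome reads lay on neither arm, and on that of miR-5128 38 of 224 and 14 of 217 did. On the hairpins of miR-671-5p and miR-1895 few did, at 1 of 193 and 1 of 111 and at 4 of 819 and 8 of 1191, and mir-126a had none. The mature sequence of miR-3473a occurred in 146 and that of miR-466f-3p in 12 genes other than miRNA genes, and those of miR-5128, miR-671-5p and miR-1895 in 0, 1 and 1.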

How the data were processed

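Small RNA of 2 libraries of MIN6 cells and 2 of their exosomes was analysed. The authors trimmed adapters, discarded rRNA reads and aligned the rest to the genome, miRBase and RNAcentral, and the submitters' processing notes name mm10, cutadapt, Bowtie, STAR, RSEM, Bowtie2 and edgeR. The authors deposited whole-read counts per mature miRNA and per hairpin without normalization. The deposited RPM were found to be counts over library sums. Columns of reads per arm (8) hold joined values and were not used.

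The exosome and cell counts were tested with edgeR 4.0.16 (quasi-likelihood, R 4.3.3), TMM and filterByExpr (minimum count 10, minimum total count 15), on all 4 libraries without covariates, and p-values were Benjamini-Hochberg adjusted over 438 miRNAs. Standard errors (SE) divide the absolute log2 fold change by √F. Where a group was at or under 3 counts in each library but not at 0 in both, pooled counts over TMM-scaled library sizes gave a ratio with an exact counting interval. Fits were tested on simulated counts. The alternatives were other scalings, DESeq2 1.42.0, exactTest at a fold of 2 and unadjusted p of 0.05, other filters, a replicate block, removal of the 5 most abundant per group, identical sequences counted once, and each library left out. Python 3.11.15, scipy 1.17.1, pandas 2.3.3 and matplotlib 3.10.9 were used.

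The members and lists were chosen with earlier results of these data known. The text names all members, their other arms and paralogues and seed mates with a count, comparison-list miRNAs with their counts only, and the 5 tested miRNAs nearest to the member with the highest exosome level.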

Additional observations from a re-analysis of the deposited data

How the results depend on the processing

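Of 95 values of tested members under 14 alternatives, 91 kept their call or lack of one, 0 became stronger and 0 reversed past the threshold. The 95 cover only alternatives in which a member was still tested, and they count the identical miR-199b-3p as a separate member. Left out, for example, are miR-199a-3p with any library removed and miR-214-3p without exosome library 1. They also include the 4 members whose calls were partly set by the filter. The other 4 of the 95 values were miR-143-3p and miR-126a-3p without either cell library, given above. The count of members called higher was 7 of 8 tested, 8 of 9 without a filter, 6 of 7 with identical sequences counted once, and 3 when at least 10 counts were required in every library, which left 3 tested. Leaving out 1 library gave 3 to 5 calls (3 of 5 tested without cell library 1 or 2, 4 of 5 without exosome library 1, 5 of 6 without exosome library 2), and the lone library left in a group was assumed to vary like the other group. The median log2 fold change of the tested members, 6.26, became 7.57 (library size alone), 6.96 (upper quartile scaling), 4.98 without a filter and 4.82 with at least 10 counts in every library, and ranged from 5.11 to 6.22 without 1 library. Among all calls, 44.6% were higher under TMM, 82.0% under library size alone and 57.6% under upper quartile scaling.

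With the replicate block the members called higher numbered 7 and their median was 6.29, and no call changed. The libraries share only a number: deviations of same-numbered libraries correlated at 0.194 over 438 miRNAs, and nothing in the labels pairs them.

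The members' share of exosome counts was 1.13% with miR-199b-3p counted beside miR-199a-3p and 2.43% with the 5 most abundant per group taken out of the total, against 0.0188% in cells. Without miR-126a-5p, an alternative chosen after seeing the data, it was 0.262% in exosomes and 0.00462% in cells. Leaving out 1 library gave 1.11% in exosomes either way and 0.00802% to 0.00850% in cells. The floors of both exosome libraries, 35.4 and 69.9 normalized CPM, exceeded the mean level in cells of every member other than miR-126a-5p, which lay between them, so that a lower level in exosomes was not detectable for those members.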
